A study of Mus musculus with 7 samples.

Results

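The genes of the cytosolic ribosomal proteins were followed in ascites samples, labelled CD8+ T cells, from mice that model peritoneal metastasis. Members were found by symbol: names of the form Rpl or Rps with a number, Rplp0 to Rplp2, and Rpsa, leaving out the Rps6k kinases and names marked as pseudogenes. The rule found 89 of the 56422 gene symbols in the deposited table, spread over 504 transcript rows: 36 of the small (40S) subunit, 50 of the large (60S) subunit and 3 of the P stalk. Paralogs and retrocopies that follow the naming pattern are therefore included, whereas Fau and Rack1, whose products belong to the ribosome under other names, are not and are described separately.

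Messenger RNA had been sequenced in 3 libraries from samples treated with propionate and butyrate and in 4 libraries from samples given no treatment, called controls here. Propionate and butyrate are short-chain fatty acids that gut bacteria make from fibre. The labels give no strain, age, tumour line or sort, and do not say whether libraries came from separate animals, and p-values therefore reflect the spread among the libraries, which may be technical. Values are TPM (transcript abundance corrected for transcript length and scaled to a fixed sum), so the sequencing depth behind a value is unknown. Within a group, values are given in the order treated replicate 1, treated replicate 2 and the third treated library, whose column carries a number that no treated sample has, then control replicates 1 to 4.

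The ribosome translates messenger RNA with a small subunit that decodes and a large subunit that joins amino acids. Ribosomal protein mRNAs begin with a cytosine followed by a run of pyrimidines, the 5' terminal oligopyrimidine (TOP) tract, through which mTORC1 and the RNA-binding protein LARP1 set their translation and stability. In T cells, activation is known to raise ribosome production as cells grow and divide. Pyrimidine tracts were searched in RefSeq promoter windows of the GRCm38.p6 build, available for 64 of the 89 members. A run of at least 6 pyrimidines reaching within 10 bases of the annotated start was present at 53.5% of 71 start sites of 60 measured members, against 29.2% of 32851 start sites of all genes. The letters CCGGAAGT, searched on both strands of the 300-base promoter, were present at 16.9% of the members' starts and 3.9% of all starts.

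Libraries differed in composition before any member was compared. The 16 T cell markers summed to 699 to 2955 TPM in treated libraries and 143 to 249.6 TPM in control libraries, and 16 of 16 rose. Cd8a, which defines the label, stood at 113, 242 and 54.3 TPM in treated libraries and at 15.6, 14.8, 7.95 and 18.0 TPM in control libraries, so it was detected but low in the controls. Epithelial and mesothelial markers summed to 872 to 1657 TPM in treated and 2318 to 2785 TPM in control libraries, with 8 of 10 tested falling, and 4 of 5 tested fibroblast markers and 4 of 4 tested erythroid markers also fell. Macrophage and monocyte markers summed to 3825 to 4320 TPM in treated and 6290 to 15196 TPM in control libraries, with 1 rising and 3 falling of 14. The highest of these sums was control replicate 3, and the other controls ran from 6290 to 7148 TPM. The 1 that rose was Ly6c2, at 213.7, 378 and 84.65 TPM in treated libraries and 28.6, 32.43, 23.92 and 48.01 TPM in control libraries. The 1 tested natural killer cell marker rose, and 0 of 7 B and plasma cell markers passed the test. Mitochondrially encoded genes held 17.1%, 15.7% and 32.9% of TPM in treated libraries and 18.2%, 14.9%, 13.6% and 18.0% in control libraries, so the third treated library stood apart. The part of these differences in the results below was not tested, and in such bulk samples fewer cells of a type and less RNA per cell cannot be told apart.

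The 89 members together held 12.9%, 15.6% and 7.42% of all TPM in treated libraries, against 9.26%, 11.3%, 10.4% and 10.3% in control libraries. The 2 numbered treated libraries were above every control, and the third treated library was below every control. The mean share was 11.98% ± 4.16 in treated libraries and 10.3% ± 0.82 in control libraries (SD, n = 3 and 4). The 40S members held 6.28%, 7.67% and 3.59% in treated libraries and 4.30%, 5.31%, 4.87% and 4.84% in control libraries, and the 60S members without the stalk 6.16%, 7.31% and 3.56% in treated libraries and 4.61%, 5.54%, 5.10% and 5.05% in control libraries. Both subunits therefore had the same order of libraries.

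The share was also taken of the total without the mitochondrially encoded genes and 7 pseudogene copies of them. Each copy shared at least 50% of its 31-base words with these genes, counting either strand. This scale was chosen after the data were seen. These pseudogenes held 10.3%, 9.23% and 20.2% of deposited TPM in treated libraries and 11.1%, 9.51%, 8.52% and 11.1% in control libraries. On this non-mitochondrial total the members held 17.8%, 20.8% and 15.8% in treated libraries and 13.1%, 14.9%, 13.3% and 14.5% in control libraries. All 3 treated libraries were then above all 4 controls, by 4.18 percentage points on average (18.1% ± 2.48 in treated, 13.9% ± 0.88 in control libraries). Removing the mitochondrially encoded genes but not their pseudogenes left the groups overlapping, at 15.6%, 18.5% and 11.1% in treated libraries and 11.3%, 13.2%, 11.99% and 12.5% in control libraries. No test is given for these shares.

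**Figure D1:**
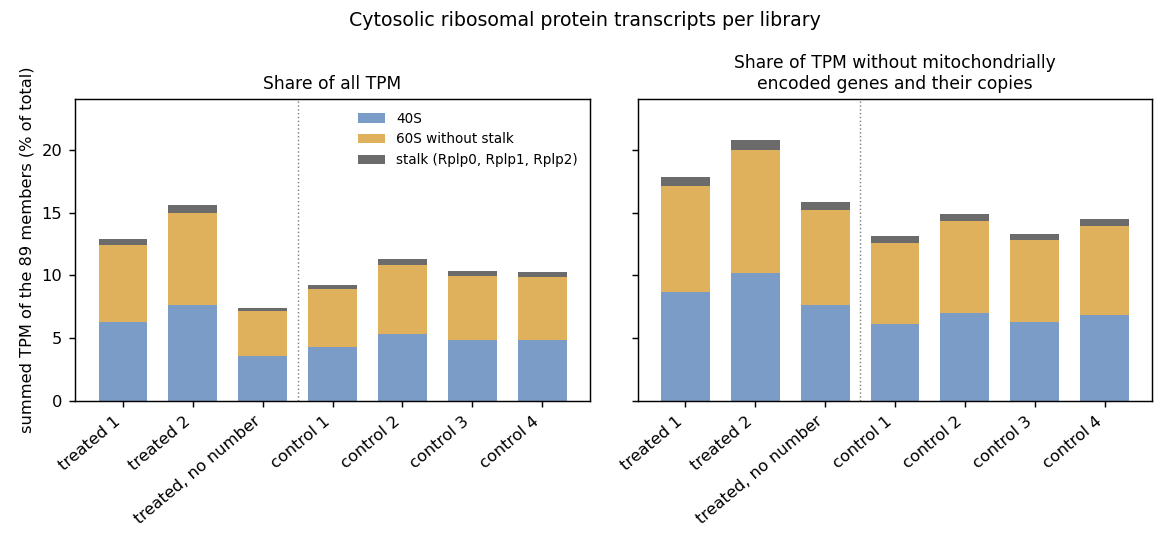
Stacked bars give the summed TPM of the 89 cytosolic ribosomal protein genes in each library as percent of the total, split into 40S, 60S and stalk members, of all TPM (left panel) and of the total without mitochondrially encoded genes and their copies (right panel). The third treated library (treated, no number) is the lowest of all as deposited, at 7.42%, and lies above every control on the non-mitochondrial total, at 15.8%.

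Levels within the family spanned a wide range. By mean TPM over the 7 libraries, 16 members were at 2000 TPM or more, 35 at 1000 to 2000, 21 at 500 to 1000, 6 at 100 to 500, 3 at 1 to 100 and 8 below 1. Rps27, a zinc-finger protein of the 40S subunit, was the most abundant, with 7381, 9128 and 3785 TPM in treated libraries and 3836, 5121, 4520 and 4775 TPM in control libraries. Rpl23a, a 60S protein at the exit of the peptide tunnel, followed with 4536, 5253 and 2479 TPM in treated and 3431, 4215, 3825 and 3895 TPM in control libraries. In both genes the third treated library was the lowest of the 7. The lowest members that passed the filter were Rpl7l1, Rpl5 and Rpl12, with means over all libraries of 50.4, 59.9 and 70.7 TPM, and for Rpl5 most of the signal lay in a copy described below.

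Members were tested if 3 or more libraries had at least 1 TPM, which 81 of 89 met. Of the 8 that did not, Rpl10l, the testis paralog of Rpl10, and Rpl32l were listed at 0 in every library. Rpl3l, the muscle paralog of Rpl3, was listed above 0 in the third treated library only, at 0.07 TPM. Rpl39l, a paralog of Rpl39 known from male germ cells, was at 0.25, 0.83 and 0.28 TPM in treated libraries and 0.11, 0.21, 0 and 0 TPM in control libraries. Rps4l was at 0.76, 0.95 and 1.51 TPM in treated libraries and 0.70, 0.72, 1.18 and 0.78 TPM in control libraries. Rpl6l, Rps3a2 and Rps3a3 also stayed below the filter.

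On the deposited scale 0 of the 81 members were called at an adjusted p under 0.05 by limma with Benjamini-Hochberg adjustment, whereas 11.9% of the 14967 genes tested were called (4.3% higher and 7.59% lower in treated libraries). At an unadjusted p under 0.05, limma gave 1 member, Rps27l, which was lower in treated libraries. The median log2 fold change, treated over control, was 0.13 over the 81 members, with 58 above 0 and a range of -0.53 to 0.55, and -0.24 over all genes tested. By subunit the median was 0.16 for the 33 tested 40S members and 0.10 for the 45 tested 60S members. Members spread widely on this scale: the median within-group SD of log2 values was 0.35 for members and 0.27 for all genes tested. For members it was 0.14 on the non-mitochondrial total. Without treated replicate 2 the median over members turned to -0.075, and without the third treated library it was 0.43.

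Groups did not overlap in only 2 members on the deposited scale, both lower in treated libraries, against 25.7% of all genes tested that were lower without overlap and 4.82% that were higher. Rps27l, a paralog of Rps27 known as a p53 target, stood at 330.4, 262 and 240.2 TPM in treated libraries and at 360.2, 434, 401 and 394 TPM in control libraries. Its log2 fold change was -0.53 (limma SE 0.20, Benjamini-Hochberg adjusted p = 0.0918). Rpl7l1, a paralog of Rpl7, stood at 47.6, 46.7 and 33.1 TPM in treated libraries and at 51.3, 61.6, 59.4 and 53.0 TPM in control libraries, a log2 fold change of -0.41 (limma SE 0.20, adjusted p = 0.167). Neither was called.

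Without the third treated library, 23 members rose and 0 fell on the deposited scale (limma, Benjamini-Hochberg adjusted p under 0.05), against 5.57% of all genes tested that rose. These were 10 of 33 members of the 40S subunit, 11 of 45 of the 60S subunit and 2 of 3 of the stalk. On the non-mitochondrial total, with all 7 libraries, 26 of 82 tested members rose and 0 fell, against 8.06% of all genes tested that rose. Of the 26, 13 were of the 40S subunit, 11 of the 60S subunit and 2 of the stalk, and 20 members were called under both settings. Lower calls made up 4.31% of all genes without the third treated library and 7.95% on the non-mitochondrial total. The median log2 fold change on that total was 0.34 over members and -0.05 over all genes tested. Groups did not overlap in 45 of the 81 members, all higher in treated libraries, and in 1 other, Rpl7l1, which was lower, against 15.1% of all genes higher and 19.6% lower without overlap. With both changes together 32 members rose and 0 fell, against 5.91% of all genes tested that rose and 4.51% that fell. T cell marker sums were higher and epithelial ones lower in treated libraries under each of these settings, and their part was not tested.

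**Figure D2:**
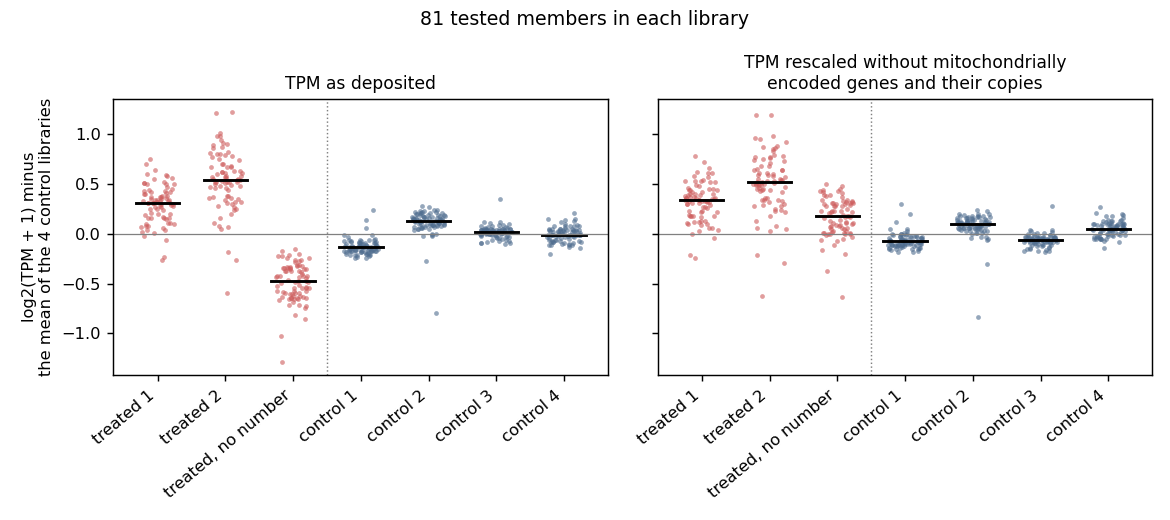
Points are the 81 tested members in each library, as log2(TPM + 1) minus the mean of the 4 control libraries, and the black line is their median; the left panel is on TPM as deposited and the right panel on the non-mitochondrial total. Most members of the third treated library lie below the control mean as deposited and above it on the non-mitochondrial total.

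Of the 40S members, Rps27 was at 10185, 12182 and 8097 TPM on the non-mitochondrial total in treated libraries, against 5435, 6788, 5808 and 6747 TPM in control libraries. The groups did not overlap, and its log2 fold change was 0.70 (limma SE 0.19, adjusted p = 0.0422). Rpsa, the laminin receptor protein of the 40S subunit, rose by 0.51 (limma adjusted p = 0.0371), and Rps27a, whose product is made as a fusion with ubiquitin, rose by 0.36 (limma adjusted p = 0.0423) on the log2 scale. Rps24, which is mutated in some patients with Diamond-Blackfan anaemia, rose by 0.61 (limma adjusted p = 0.0468). Rps20, chosen after its values were seen, was at 809, 1029.9 and 722 TPM in treated libraries and 546, 533, 475 and 566 TPM in control libraries, a log2 fold change of 0.67 (limma adjusted p = 0.0158). A pseudogene copy held 30.3% of the TPM of Rps20 and that copy together, so the level of Rps20 is uncertain. Rps6, the substrate of S6 kinases, had 0.51 (limma adjusted p = 0.0692), Rps14 had 0.45 (adjusted p = 0.069) and Rps4x had 0.37 (adjusted p = 0.0691), and none of these 3 was called.

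Of the 60S members, Rpl13a, which in human myeloid cells also leaves the ribosome to silence inflammatory mRNAs, was at 4217, 6084 and 3585 TPM on the non-mitochondrial total in treated libraries. Control libraries held 2485, 2942, 2553 and 2710.4 TPM. Every treated library was above every control, and the log2 fold change was 0.76 (limma SE 0.19, adjusted p = 0.0326). Rpl22, whose loss blocks development of alpha-beta T cells in mice, rose by 0.45 (limma adjusted p = 0.0375). Its paralog Rpl22l1 was at 859.8, 932 and 861 TPM in treated libraries and 635, 621, 609.7 and 680.1 TPM in control libraries, a log2 fold change of 0.47 (limma SE 0.08, adjusted p = 0.0111). Rpl39, at the peptide tunnel, rose by 0.49 (limma adjusted p = 0.0224). Rpl11, which with Rpl5 and 5S rRNA can bind MDM2, had 0.34 (limma adjusted p = 0.0609), Rpl3, near the peptidyl transferase centre, had 0.21 (adjusted p = 0.227), and Rpl23a had 0.24 (adjusted p = 0.293). Neither Rpl11, Rpl3 nor Rpl23a was called.

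The stalk recruits the GTPases that drive translation. Rplp2 was at 1375, 1631 and 1246 TPM on the non-mitochondrial total in treated libraries and 988, 961, 868 and 1001 TPM in control libraries, a log2 fold change of 0.56 (limma SE 0.12, adjusted p = 0.0188). Rplp1 rose by 0.51 on the same scale (limma adjusted p = 0.042). Rplp0, which anchors the others, had 0.14 (limma adjusted p = 0.496) and did not pass the test. Whether Rplp0 differed from its partners was not tested.

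Members were next compared with each other, by subtracting each library's median log2 level of the 81 tested members, which removes any shift the family shares. The median within-group SD of members' log2 values was then 0.071, against 0.35 on the deposited scale, so most of the spread between libraries of a group was common to the family. Relative to the family, 3 members were called, all lower in treated libraries, against 20.4% of all genes tested that were lower and 4.15% that were higher on this scale. On this scale the median difference over all genes tested was -0.38, and the members' own median is near 0 by construction. Groups did not overlap in 19 members that were higher and 19 that were lower, against 5.19% and 33.6% of all genes.

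The start-site windows of the 3 members called, and of the 3 members with the highest relative difference, are printed because these 6 are described one by one below. RefSeq places them, on GRCm38.p6, at chr9:66946046-66946110 on the plus strand (Rps27l, the first of 2 starts), chr17:46782632-46782696 on the minus strand (Rpl7l1) and chrX:74270776-74270840 on the plus strand (Rpl10). The others lie at chr7:45128721-45128785 (Rpl13a), chr7:118116123-118116187 (Rps15a, chosen after its values were seen) and chr3:90213624-90213688 (Rps27), all on the minus strand. Each runs from 40 bases before to 25 bases after the annotated start, and capitals mark each run of at least 6 pyrimidines reaching within 10 bases of it.
Rps27l: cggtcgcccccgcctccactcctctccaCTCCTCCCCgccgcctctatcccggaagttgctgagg
Rpl7l1: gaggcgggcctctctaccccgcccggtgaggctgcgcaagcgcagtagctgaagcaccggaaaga
Rpl10: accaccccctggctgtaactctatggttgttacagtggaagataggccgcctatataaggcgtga
Rpl13a: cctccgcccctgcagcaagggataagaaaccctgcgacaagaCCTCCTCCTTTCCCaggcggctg
Rps15a: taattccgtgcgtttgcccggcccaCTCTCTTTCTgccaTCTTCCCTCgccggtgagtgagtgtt
Rps27: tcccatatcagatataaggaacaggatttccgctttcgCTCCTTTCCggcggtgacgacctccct
Such a run is present in the windows of Rps27l, Rpl13a, Rps15a, where 2 runs meet the rule, and Rps27, and not in those of Rpl7l1 and Rpl10, which says only that these letters are not there.

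Rps27l lay at -2.01, -2.59 and -1.64 log2 units from the family median in treated libraries and at -1.38, -1.44, -1.41 and -1.43 in control libraries. The 4 controls were within a narrow band and every treated library was below it. The difference was -0.66 (limma SE 0.20, Benjamini-Hochberg adjusted p = 0.0321). It was -0.41 without treated replicate 2 and -0.89 without the third treated library (limma adjusted p = 0.0601 and 0.00799). The call was also lost without treated replicate 1, control replicate 1 or control replicate 4 (limma adjusted p = 0.0633, 0.0779 and 0.0595).

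Rpl7l1 lay at -4.79, -5.06 and -4.46 log2 units in treated libraries and at -4.17, -4.24, -4.14 and -4.30 in control libraries, again without overlap. The difference was -0.55 (limma SE 0.18, adjusted p = 0.0413). This call held in 1 of the 7 fits that left out a library, the one without the third treated library, where the difference was -0.71 (limma adjusted p = 0.0102). In the other 6 the limma adjusted p ran from 0.0614 to 0.117.

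Rpl10, which completes the 60S subunit late in its assembly, lay at -0.31, -0.45 and -0.74 log2 units in treated libraries and at 0.06, 0.04, 0.16 and -0.05 in control libraries. The difference was -0.55 (limma SE 0.15, adjusted p = 0.0235). On the deposited scale Rpl10 was at 1081, 1161 and 448 TPM in treated libraries and 979.9, 1209, 1191 and 1028 TPM in control libraries, where the groups overlapped. The relative call was lost without control replicate 1 or 3 (limma adjusted p = 0.0682 and 0.0686). When its pseudogene copies were added the difference was -0.25 (limma adjusted p = 0.102). The largest of these copies, Rpl10-ps3, averaged 1177 TPM and was counted as a copy by its name.

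At the other end, Rpl13a lay at 1.19, 1.52 and 1.16 log2 units from the family median in treated libraries and at 0.90, 0.91, 0.90 and 0.85 in control libraries. The difference of 0.40 was not called (limma SE 0.14, adjusted p = 0.0547). Rps15a, a 40S protein, lay at 0.77, 0.99 and 0.51 in treated libraries and at 0.28, 0.31, 0.34 and 0.48 in control libraries, a difference of 0.41 (limma adjusted p = 0.0648). Rps27 lay at 2.46, 2.52 and 2.34 in treated libraries and at 2.03, 2.12, 2.08 and 2.16 in control libraries, a difference of 0.34 (limma adjusted p = 0.0722). In all 3 the groups did not overlap. Without the third treated library Rpl13a, Rps15a and Rps27 were called higher and 7 members lower, against 3.96% and 42.1% of all genes tested, and Rpl10, Rpl35, Rpl41, Rpl7l1, Rps2 and Rps27l were among the 7. Of these, Rpl35 and Rps2 were named after their values were seen.

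T cell marker sums were 1309, 2955 and 699 TPM in treated libraries and 187, 211, 143 and 249.6 TPM in control libraries. Treated replicate 2 had the highest T cell sum and also the lowest relative Rps27l and Rpl7l1 and the highest relative Rpl13a, Rps15a and Rps27. Relative Rpl10 had another order and was lowest in the third treated library, which had the lowest treated T cell sum. The part of T cell content in these differences was not tested.

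**Figure D3:**
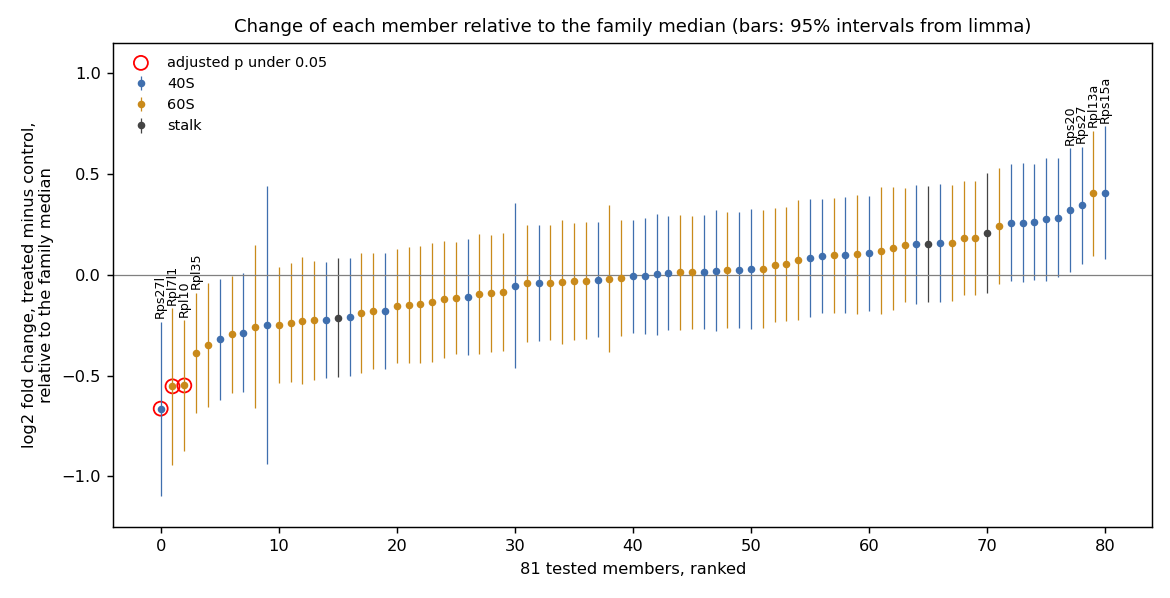
Log2 difference, treated minus control, of each of the 81 tested members relative to the family median, ranked by size and coloured by role, with 95% intervals from limma as bars. Circles mark the 3 members called lower, Rps27l (-0.66), Rpl7l1 (-0.55) and Rpl10 (-0.55), and the highest values belong to Rps15a (0.41) and Rpl13a (0.40).

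**Figure D4:**
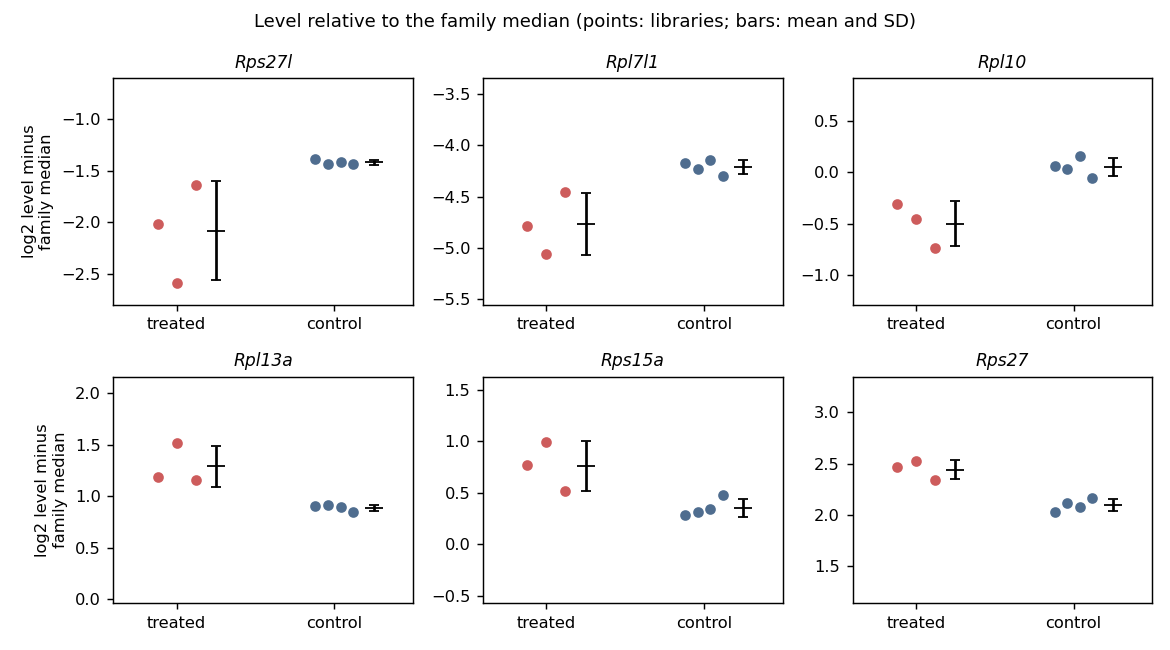
Distance from the family median in log2 units for 6 members, with a point per library and the mean with its SD beside the points, treated left of control. In Rps27l, Rpl7l1 and Rpl10 the 3 treated libraries lie below the 4 controls, and in Rpl13a, Rps15a and Rps27 above them.

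Paralogs were set against their parent genes, a ratio that does not depend on the library total. Of 8 pairs listed, 4 had a measurable paralog. Rps27l amounted to 4.48%, 2.87% and 6.35% of Rps27 in treated libraries and to 9.39%, 8.48%, 8.86% and 8.25% in control libraries. All treated libraries were below all controls, with a mean log2 ratio lower by 1.01 in treated libraries (log2 difference -1.01, two-sided exact permutation p = 0.0286, adjusted over 4 pairs 0.0571). With 35 splits of 3 against 4 libraries, 0.0286 is the smallest p the test can give. Rpl7l1 amounted to 4.34%, 3.68% and 5.13% of Rpl7 in treated libraries and to 6.63%, 6.62%, 6.64% and 6.0% in control libraries, also without overlap. Its log2 difference was -0.57 (exact permutation p = 0.0286, adjusted 0.0571).

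The other 2 pairs overlapped between groups. Rpl22l1 amounted to 52.3%, 47.8% and 55.2% of Rpl22 in treated libraries and 56.4%, 46.9%, 49.8% and 50.8% in control libraries (log2 difference 0.02, exact permutation p = 0.743, adjusted 0.743). Rpl36al amounted to 44.5%, 55.0% and 53.4% of Rpl36a in treated libraries and 59.7%, 49.6%, 56.2% and 51.8% in control libraries (log2 difference -0.10, exact permutation p = 0.457, adjusted 0.61). The percentages of Rpl36a are uncertain, since copies held 69.5% of the TPM of that gene and its copies together. When each library was left out in turn, the log2 difference ran from -1.28 to -0.71 for Rps27l, from -0.69 to -0.46 for Rpl7l1 and from -0.03 to 0.08 for Rpl22l1.

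Ribosomal protein genes have many processed pseudogenes, to which reads of a parent can be assigned. Of 501 such copies, 321 carry a parent's name and 180 were found by shared sequence alone. The copies held 2.47%, 2.91% and 1.58% of TPM in treated libraries and 1.82%, 2.29%, 1.98% and 2.11% in control libraries. For 12 members the copies exceeded the parent, and for 19 they made up more than 20% of both. The copies of Rpl27a averaged 2325 TPM over the 7 libraries beside 343 TPM for the gene itself, and those of Rps23 averaged 2629 TPM beside 548 TPM. For Rps28 the copies averaged 3171 TPM beside 1546 TPM, so the levels of these 3 genes are uncertain.

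Adding copies gave a call for 1 member on the deposited scale, Rpl5, the 60S protein that carries 5S rRNA into the subunit. Its own rows were at 62.7, 72.3 and 38.8 TPM in treated libraries and at 63.3, 50.3, 66.2 and 65.4 TPM in control libraries, with a log2 fold change of -0.12 (limma adjusted p = 0.743). Its copy Gm15500, named after its values were seen, was at 181.5, 136 and 118 TPM in treated libraries and at 267, 353, 330.5 and 338 TPM in control libraries, without overlap. Gene and copies together were at 244, 208 and 157 TPM in treated libraries and at 330.3, 404, 397 and 403 TPM in control libraries. On that sum Rpl5 fell by 0.93 on the log2 scale (limma SE 0.21, adjusted p = 0.00976), and by 1.06 relative to the family (limma adjusted p = 0.00239), where 7.78% and 28.6% of all genes tested were lower. Which locus the reads came from was not tested.

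**Figure D5:**
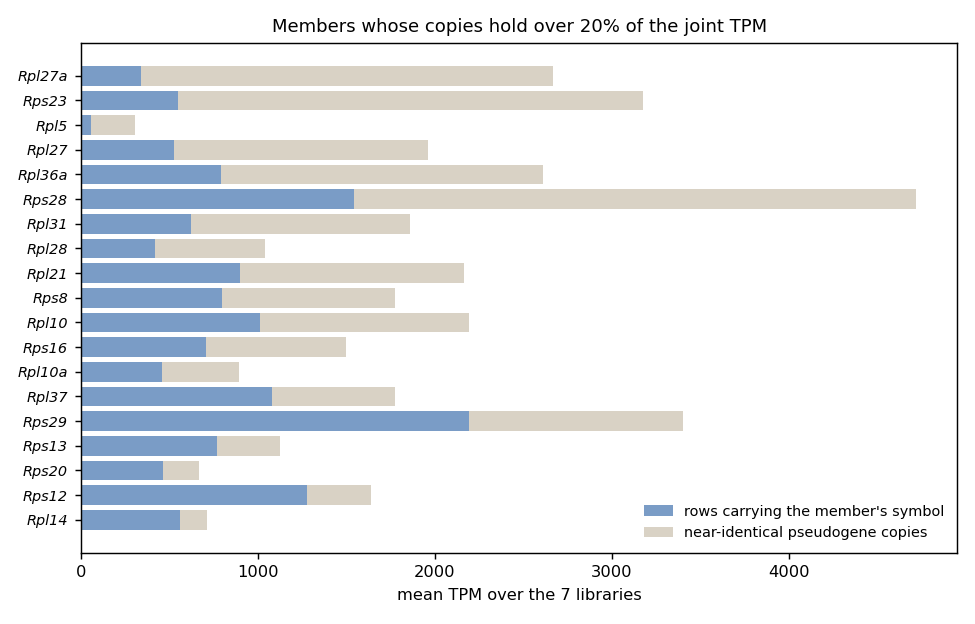
Mean TPM over the 7 libraries of the 19 members whose copies hold more than 20% of the joint TPM, with the rows that carry the member's symbol and the pseudogene copies stacked. Copies exceed the gene's own rows for Rpl27a (2325 beside 343 TPM), Rps23 (2629 beside 548 TPM) and Rpl5 (246 beside 59.9 TPM), among others.

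Each member had between 1 and 19 transcript rows, with a median of 6. The largest row of Rps24, a gene with alternative 3' ends, held 54.6%, 63.0% and 37.4% of its TPM in treated libraries and 36.0%, 33.9%, 37.1% and 39.9% in control libraries. The groups overlapped through the third treated library. The largest row of Rpl10a held 46.6%, 56.6% and 40.2% in treated libraries and 68.8%, 72.2%, 75.1% and 61.7% in control libraries, without overlap. Both were chosen after their values were seen, and no test was made on rows.

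Components that the naming rule leaves out gave mixed values. Rps27rt, a retrogene of Rps27, was at 151, 160.2 and 147 TPM in treated libraries and at 52.9, 65.3, 56.6 and 98.7 TPM in control libraries, and rose by 1.19 on the log2 scale (limma SE 0.22, adjusted p = 0.00348). How reads were divided between Rps27 and Rps27rt was not tested. Fau, the ubiquitin-like fusion of Rps30, had 0.17 on the deposited scale (limma adjusted p = 0.657) and rose by 0.38 on the non-mitochondrial total (adjusted p = 0.0419). Rack1, the scaffold of the 40S head, had -0.03, Rpl36al had 0.00 and Rpl37rt had -0.33, and none of these 3 was called. Rpl37rt was also counted among the pseudogene copies above, with Rpl37 as its parent.

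The wider pathway was followed in 5 lists of other genes, whose counts stand against 4.3% higher and 7.59% lower over all genes tested on the deposited scale, and 8.06% and 7.95% on the non-mitochondrial total. Of 23 translation factors and other TOP mRNAs, 0 rose or fell on the deposited scale with a median log2 fold change of -0.13, and 1 rose and 0 fell on the non-mitochondrial total with a median of 0.08. Of these, Eif3l, a subunit of initiation factor eIF3, had -0.50 (limma adjusted p = 0.12) and Eef1d, an elongation factor subunit, had -0.42 (limma adjusted p = 0.207) on the deposited scale. Of 15 RNA polymerase I genes 0 were called on the deposited scale and 1 rose on the non-mitochondrial total. Of 10 snoRNA host genes 1 fell on the deposited scale, Snhg3, at 114, 82.0 and 64.4 TPM in treated libraries and 156, 146, 155 and 161 TPM in control libraries (limma log2 fold change -0.86, adjusted p = 0.0163). It was also the 1 that fell on the non-mitochondrial total, where 1 other rose.

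Of 50 ribosome biogenesis factors 0 rose and 2 fell on the deposited scale, with a median of -0.17, and 3 rose and 3 fell on the non-mitochondrial total, with a median of 0.04. Of all genes tested, 7.59% fell on the deposited scale, and 8.06% rose and 7.95% fell on the other, so these shares of 50 were not above the background. Nhp2, a protein of the snoRNPs that pseudouridylate rRNA, was at 78.0, 66.0 and 41.7 TPM in treated libraries and 98.6, 127, 95.5 and 99.7 TPM in control libraries (limma log2 fold change -0.79, adjusted p = 0.0355). Eif6, which keeps free 60S subunits from joining 40S subunits, was at 69.5, 70.4 and 45.1 TPM in treated libraries and 94.3, 114, 104 and 82.7 TPM in control libraries (limma log2 fold change -0.69, adjusted p = 0.047). The Nhp2 call was lost without treated replicate 2, the third treated library or control replicate 1, 2 or 4 (limma adjusted p = 0.0513 to 0.0992). The Eif6 call was lost without any library but treated replicate 1 (limma adjusted p = 0.058 to 0.134).

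Of 18 genes of the mTORC1 and MYC axis, 0 rose and 2 fell on the deposited scale, with a median of -0.29, where 7.59% of all genes tested fell. On the non-mitochondrial total 1 rose and 2 fell, with a median of -0.09. Eif4ebp1, a translation repressor that mTORC1 inactivates, was at 14.4, 14.1 and 9.67 TPM in treated libraries and 28.1, 31.5, 29.9 and 22.6 TPM in control libraries. It fell by 1.09 on the log2 scale (limma SE 0.21, adjusted p = 0.00456). Akt1s1, a subunit of mTORC1 that restrains it, was at 35.6, 36.2 and 23.99 TPM in treated libraries and 49.6, 66.0, 53.3 and 47.7 TPM in control libraries (limma log2 fold change -0.76, adjusted p = 0.0317). The Akt1s1 call was lost without the third treated library or control replicate 1, 2 or 3 (limma adjusted p = 0.051 to 0.103). With no filter on low values, where the test covered 29687 genes, the calls of Rps27rt, Snhg3, Nhp2, Eif6, Eif4ebp1 and Akt1s1 on the deposited scale were all lost (limma adjusted p = 0.0656 to 0.121), as were those of Rpl7l1 and Rpl10 relative to the family (0.0936 and 0.0708).

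The nuclear genes of the mitochondrial ribosome, which translates the mRNAs of the mitochondrial genome, served as a second ribosomal family. Of 78 tested, 0 rose and 7 fell on the deposited scale, with a median log2 fold change of -0.46, against 4.3% and 7.59% of all genes tested; for the cytosolic members these were 0 and 0, with a median of 0.13. They held 0.377%, 0.359% and 0.237% of TPM in treated libraries and 0.423%, 0.495%, 0.443% and 0.420% in control libraries, with no overlap. On the non-mitochondrial total 0 rose and 15 fell, with a median of -0.25, whereas 26 cytosolic members rose and 0 fell, against 8.06% and 7.95% of all genes tested. Relative to the cytosolic family median 46 of the 78 fell, against 20.4% of all genes tested.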

How the data were processed

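Values came as TPM in a table the authors deposited, with 149132 transcript rows. Per the labels' protocols, poly(A) RNA was made into stranded libraries. HISAT2, StringTie, fastp and the mm39 build are named, per the submitters' processing notes, without roles or versions, with the program behind the TPM not given in the sources used here. TPM keeps no depth, so no counting interval could be computed. The table held 0 other columns of values. Rows without a symbol (1001, 0.307% to 0.618% of TPM) were left out, and TPM was summed per symbol.

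Groups were compared on log2(TPM + 1) by limma 3.58.1 (R 4.3.3) with an intensity trend and Benjamini-Hochberg adjustment over the 14967 genes that reached 1 TPM in 3 or more of the 7 libraries, calling genes at an adjusted p under 0.05. Fold changes are on this scale and understate changes of low genes. A second fit subtracted each library's median log2 value of the tested members. Paralog ratios used log2 of values plus 0.1 and a two-sided exact permutation test over 35 splits. Copies were pseudogenes named after a member or sharing at least 50% of their 31-base words with one, from GENCODE transcripts of an earlier build than the authors'. The fit was checked on simulated data with independent noise in each gene, which does not cover shifts that genes of a library share.

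The column of the third treated library names the treated group but has a number absent from its samples, and it was never paired. Replicate numbers 1 and 2 occur in both groups, but same-numbered libraries did not deviate together (correlations of -0.019 and -0.09), so no block was used.

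The members, lists and tests were chosen with earlier results of these data known. Named members were 30: those called in either fit, the 5 highest and 3 lowest by mean TPM, and fixed members; other lists give the genes with the smallest p. Others are marked as chosen after their values were seen. Some genes in these lists and counts are not reported here singly. Alternatives changed the pseudocount, filter, scaling, variance model, library weights, block, threshold and treatment of copies and transcript rows, and left out each library in turn.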

Additional observations from a re-analysis of the deposited data

Results flagged for a closer look

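Within groups of 4 libraries, 52 values were examined for 1 library far from the others, and 2 were found, where chance alone gives about 1 in 20. Nhp2 stood at 127 TPM in control replicate 2, above the other 3 controls at 95.5 to 99.7 TPM. Rpl7l1 amounted to 6.0% of Rpl7 in control replicate 4, below the other 3 controls at 6.62% to 6.64%. The 3 treated libraries, at 3.68% to 5.13%, were below that control as well.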

How the results depend on the processing

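The count of members called depended on scaling and on the third treated library. Members called higher numbered 0 on the deposited scale, 10 with median-of-ratios scaling, 65 with array weights, 5 with the replicate block, 26 on the non-mitochondrial total and 32 on that total without the third treated library. Of all genes tested, 4.3%, 8.63%, 15%, 3.84%, 8.06% and 5.91% were called higher in these same fits. The replicate block used only the libraries whose replicate number occurs in both groups. It therefore also left out the third treated library and control replicates 3 and 4. Leaving out 1 library gave 0 to 23 members called higher. The median log2 fold change of members was 0.13 as deposited and 0.38, 0.53, 0.43, 0.34 and 0.43 under the same alternatives, and with 1 library left out it ran from -0.075 (without treated replicate 2) to 0.43. Median-of-ratios scaling moved the median of all genes from -0.24 to -0.02.

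Members called lower numbered 1 at an adjusted p under 0.1, without mitochondrially encoded genes alone, with array weights and with copies added (15.3%, 12.3%, 28.2% and 7.78% of all genes), and 0 to 1 with 1 library left out. Relative to the family, members called higher numbered 2 with a pseudocount of 0.1 (4.46% of all genes), 3 with a TPM of at least 5 (3.75%), 17 with array weights (6.81%), 1 with the replicate block (3.33%), 4 with the leading transcript row (3.87%), 2 with copies added (4.57%) and 0 to 3 with 1 library left out. Members called lower relative to the family numbered 1 with no filter (7.23% of all genes), 25 with array weights (70.8%), 6 with the leading transcript row (23.4%), 5 with copies added (28.6%) and 0 to 7 with 1 library left out. The family share difference ran from -0.11 to 3.97 percentage points with 1 library left out.

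With array weights 2 genes turned direction and were called, Rack1 at 0.41 and Rpl3 at 0.38. Of other values for single genes, 960 on the level scale kept their call or their lack of one, 84 gained a call and 34 lost one. Uncalled values that changed direction are counted among the 960. Rack1, for example, went from -0.03 to 0.27 without the third treated library, uncalled in both fits. Over all genes, 643 were called higher and 1136 lower, against 3 and 4 with no filter, 1292 and 1009 with median-of-ratios scaling, 574 and 138 with the replicate block and 2246 and 4221 with array weights. The paralog ratios kept their direction for Rps27l and Rpl7l1 throughout; with the replicate block, a value with no test, they were -1.32 and -0.73. The replicate numbers share a name only. The cause of these changes was not tested. Depth is unknown.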
